A study of Mus musculus with 6 samples.

Results

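Transcripts of respiratory complex I were examined in RNA sequencing libraries from the atria of 6 old mice. The genes were taken by name: protein-coding genes of the deposited table whose symbol begins with Ndufa, Ndufb, Ndufc, Ndufs, Ndufv or Ndufaf and that had at least 60 reads summed over the 6 libraries. This gave 45 of the 54838 genes counted, and all 45 were among the 14708 genes abundant enough to be tested. By role they comprise 35 nuclear-encoded subunits, 8 assembly factors (Ndufaf1 to Ndufaf8), and Ndufa4 with its paralogue Ndufa4l2. The lowest of the 45 was Ndufa4l2 with 1326 reads, and no gene with the name lay between it and the threshold. Outside the threshold were Ndufa13, a subunit gene with 0 reads in every library, and the pseudogene Ndufa11b with 35 reads. The body of Ndufa13 lies entirely under Tssk6 and Yjefn3, and 98.1% of the 1348 protein-coding genes with no free body were at 0 in all libraries, so no level is reported for it. Ndufb1-ps (33658 reads) was left out because GENCODE M21 does not annotate it as protein-coding.

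Complex I is the entry point of the mitochondrial respiratory chain for electrons from NADH. A matrix arm oxidises NADH through a flavin and a chain of iron-sulphur clusters and reduces ubiquinone, and a membrane arm pumps protons across the inner mitochondrial membrane. Its core subunits are shared with bacteria, and in mammals part of them is encoded in the mitochondrial genome; the accessory subunits surround the core, and assembly factors help to build the enzyme without remaining in it. In the heart, where mitochondria fill much of the muscle cell, it is among the abundant enzymes.

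The study compared wild-type (WT) mice with knockouts of Prkce, the gene of protein kinase C epsilon (PKC-epsilon), with 3 libraries per group and 1 mouse per library. The wild-type mice were C57BL/6J and the knockout (KO) mice the line JAX stock #004189. Both groups were old, with an average age given as 20.9 ± 0.43 months (kind of error not stated). They were described as including both sexes, and carried no further treatment in the labels. For 4 of the 6 libraries the labels disagree on the genotype: the library name says one thing, and the genotype field says another together with the title and the mouse line. Libraries are called here by library name and title replicate number, WT 1 to WT 3 and KO 1 to KO 3. WT 1 and KO 1 have the same genotype in both readings. In the genotype field KO 2 and KO 3 are wild type, and WT 2 and WT 3 are knockout. Both readings were compared throughout, and because they share all 6 libraries their results are not independent of each other.

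The level of Prkce itself did not settle the labels. In CPM (counts per 1000000 reads, scaled by TMM factors), it was 36.2, 11.7 and 30.2 in WT 1 to WT 3 and 9.20, 5.15 and 28.6 in KO 1 to KO 3. WT 2 is thus low and KO 3 high for their library names, while KO 2 is low and WT 3 high for their genotype fields. Directions given below are therefore those of libraries labelled KO and WT. Library totals ran from 11574206 to 24138824 reads. Cardiomyocyte markers fixed as a list (12 genes, among them Myh6, Tnnt2 and the atrial light chains Myl4 and Myl7) summed to between 60680 and 74230 CPM, and none of the 12 was at 0 in any library. Library WT 1 stood apart from the rest on the first principal component of all tested genes (38.8% of the variance), at -46.8 against -5.96 to 30.75. Y-linked transcripts were near 1 CPM in WT 1 (1.08) and WT 2 (1.09) and at 78.9 or more in the other 4. By library name, every library named KO thus had Y-linked transcripts, so sex and label are partly confounded. By genotype field, each group held libraries with and without them.

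Sequences upstream of complex I genes are shown as a description. Transcripts of the complex moved together between libraries, but so did short transcripts of other genes, as described below. A link between motifs and levels was not tested. RefSeq promoter windows (GRCm38.p6, 250 bases before to 50 after the annotated start) were at hand for 39 of the 45 genes. Nuclear respiratory factor 1 (NRF1) is a transcription factor known for binding promoters of respiratory chain genes. Its palindromic motif, searched as GCGCA and GCGC with any 1 base between them on both strands, was found in 9 of the 39 windows (23.1%), against 9.68% of the 10769 windows of tested genes and 4.78% of all 27025 windows. In 6 of the 9 it lay within the 150 bases before the start. These 6 stretches follow, 5′ to 3′ on the gene's strand, with the motif in capitals.

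Ndufb4, chr16:37654369-37654518, minus strand: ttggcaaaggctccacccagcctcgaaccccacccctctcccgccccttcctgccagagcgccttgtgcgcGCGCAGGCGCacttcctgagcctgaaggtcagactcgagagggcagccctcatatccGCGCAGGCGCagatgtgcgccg
Ndufs5, chr4:123718187-123718336, minus strand: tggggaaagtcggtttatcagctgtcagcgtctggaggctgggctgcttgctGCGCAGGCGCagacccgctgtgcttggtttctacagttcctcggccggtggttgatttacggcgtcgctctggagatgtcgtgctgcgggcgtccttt
Ndufs6, chr13:73328483-73328632, minus strand: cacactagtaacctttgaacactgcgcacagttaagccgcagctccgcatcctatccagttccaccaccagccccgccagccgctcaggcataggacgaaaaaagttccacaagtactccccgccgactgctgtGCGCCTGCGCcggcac
Ndufa8, chr2:36049339-36049488, minus strand: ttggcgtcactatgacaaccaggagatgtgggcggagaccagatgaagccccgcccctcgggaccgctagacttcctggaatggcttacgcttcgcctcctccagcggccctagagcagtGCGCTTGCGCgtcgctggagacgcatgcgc
Ndufa11, chr17:56717612-56717761, plus strand: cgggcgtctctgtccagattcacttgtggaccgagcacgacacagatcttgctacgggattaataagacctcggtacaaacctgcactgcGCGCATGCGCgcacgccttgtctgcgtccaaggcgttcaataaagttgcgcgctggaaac
Ndufaf4, chr4:24897933-24898082, plus strand: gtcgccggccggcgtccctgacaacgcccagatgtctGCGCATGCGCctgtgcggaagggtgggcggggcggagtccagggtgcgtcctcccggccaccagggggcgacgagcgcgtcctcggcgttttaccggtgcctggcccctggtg

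Ndufb4, a distal membrane arm subunit, carried the motif at 2 places. The other 5 belong to the proximal membrane arm (Ndufs5, Ndufa8, Ndufa11), the matrix arm (Ndufs6) and the assembly factors (Ndufaf4), so the motif was found across roles. The motif AAGATGGC of YY1, a zinc-finger factor that often sits just downstream of the start, was found in 8 windows (20.5%), against 4.38% of the windows of tested genes. None of these 8 lay in the 150 bases before the start. The ETS-family motif CCGGAAG, bound by GABPA, was found in 6 windows (15.4%), which is near the 17.0% of tested genes. One of the 6 is Ndufb7, whose levels are described below.

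Ndufb7, chr8:83566608-83566757, plus strand: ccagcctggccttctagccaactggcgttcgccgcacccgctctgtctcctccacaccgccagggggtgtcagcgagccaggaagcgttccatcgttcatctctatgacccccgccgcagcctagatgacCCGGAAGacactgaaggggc

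A cyclic AMP response element (TGACGTCA) was found in 3 windows (7.69%, against 3.1% of tested genes), a GC box (GGGCGG) in 20 (51.3%, against 62.0%) and CCAAT in 13 (33.3%, against 38.2%). The motif TCAAGGTCA of the oestrogen-related receptors was in none of the 39 and in 0.316% of the windows of tested genes. Each letter match describes these windows only, and binding was not measured.

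To compare levels between genes, CPM were divided by the length in kilobases of the principal transcript lying outside other genes, and averaged over the 6 libraries. This divisor holds exon bases only, and whether reads in introns were counted is not known. The 35 subunits had a median of 304 CPM per kilobase and the 8 assembly factors one of 21.9. In every library the subunit median was between 10.6 and 15.5 times the assembly factor median. Core matrix arm subunits had a median of 251 CPM per kilobase, accessory matrix arm subunits 309, proximal membrane arm subunits 334 and distal membrane arm subunits 379, with broad overlap between these 4 sets. The 4 highest genes were Ndufa4 (1781), which is now assigned to cytochrome c oxidase, and the distal membrane arm subunits Ndufb9 (1169), Ndufb10 (731) and Ndufb8 (692). The 4 lowest were Ndufa4l2 (14.6), a hypoxia-inducible paralogue of Ndufa4, and the assembly factors Ndufaf6 (14.9), Ndufaf3 (17.9) and Ndufaf7 (20.8). Ndufaf2, the highest assembly factor at 39.7 CPM per kilobase, was above a single subunit, Ndufb2 at 32.4. Ndufb2 and the acyl carrier protein Ndufab1 (70.3) have long annotated transcripts of 4371 and 3479 bases, which lowers their values on this scale. The free part also matters at the top: 45.5% of the transcript of Ndufb9 and 54.9% of that of Ndufb8 lie outside other genes. Divided by whole transcript length, Ndufb9 would be at 532 and Ndufb8 at 379 CPM per kilobase, below Ndufa3 (654) and Ndufa1 (656).

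**Figure D1:**
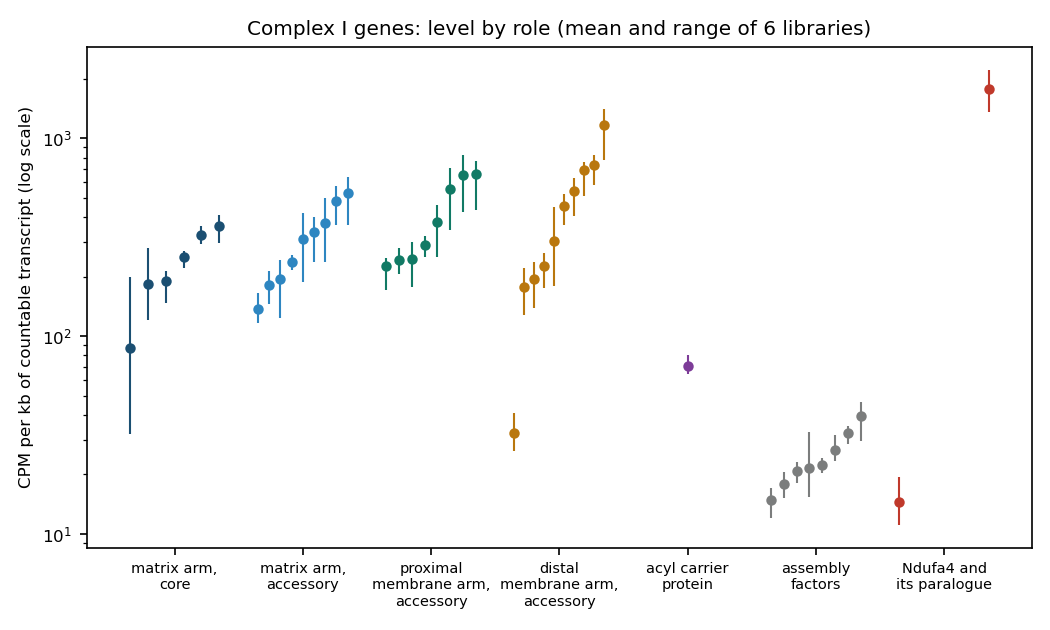
Level of 44 complex I genes in CPM per kilobase of countable transcript (log scale), grouped by role; points are means and bars the range over 6 libraries. Assembly factors lie between 14.9 and 39.7, below all subunits except Ndufb2 (32.4), and the longest bar among the subunits is that of the core subunit Ndufs1.

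The core matrix arm subunits carry the redox chemistry. Ndufv1, which binds NADH and the flavin, was at 487, 535 and 586 CPM in WT 1 to WT 3 and 599, 502 and 520 in KO 1 to KO 3. Ndufv2, its iron-sulphur partner, was at 504, 585 and 622 against 605, 691 and 676. In both genes WT 1 was the lowest library and the groups named WT and KO overlapped. Ndufs3 ran from 212 (WT 1) to 259 CPM (WT 3), and Ndufs8, an iron-sulphur subunit next to the quinone site, from 148 (WT 1) to 216 (WT 2). Ndufs7, which holds the last iron-sulphur cluster before quinone, was at 119, 274 and 202 CPM in WT 1 to WT 3 and at 202, 147 and 144 in KO 1 to KO 3. Its highest and lowest values both came from libraries named WT. Ndufs1, the largest core subunit, behaved otherwise and is described separately.

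By library name, no complex I gene passed the test between KO and WT: 0 of 45 had an adjusted p under 0.05 by the quasi-likelihood test of edgeR, as did 0.0% of all 14708 genes. DESeq2 called 0 of the 45 as well. At an unadjusted p under 0.05 there were 0 of 45, against 1.49% of all genes. The log2 fold change was above 0 for 38 of the 45 (84.4%), against 45.5% of all genes, with a median of 0.10 against -0.02. This lean was not particular to complex I. Nuclear subunits of complexes II to V had 83.3% above 0 (median 0.151) and mitochondrial ribosomal proteins 85.9% (median 0.111). Protein-coding genes with transcripts under 1000 bases had 65.1% (median 0.077), and longer ones 43.6% (median -0.029). Groups overlapped for all 45 genes, while they did not for 5.95% of all genes. The differences were thus small and within the spread of the libraries.

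The gene with the largest positive log2 fold change by library name was Ndufb9, a distal membrane arm subunit of the LYR-motif family. It was at 250, 399 and 366 CPM in WT 1 to WT 3 and 355, 426 and 450 in KO 1 to KO 3, a log2 fold change of 0.28 (SE 0.19, edgeR adjusted p = 0.99993). Ndufs4, an accessory matrix arm subunit whose loss in mice gives a fatal encephalopathy, was at 197, 224 and 222 against 219, 258 and 282 CPM. Its log2 fold change was 0.24 (SE 0.15), with KO 1 below WT 2 and WT 3. Ndufaf5, an assembly factor that hydroxylates Ndufs7, was at 27.2, 28.6 and 29.1 against 28.7, 35.5 and 36.9 CPM, a log2 fold change of 0.25 (SE 0.16). Ndufb5 gave 0.22 (SE 0.16). Among genes with a negative log2 fold change, Ndufa4l2 gave -0.26 (SE 0.22), Ndufs7 -0.27 (SE 0.27), Ndufc2 -0.13 (SE 0.15) and Ndufs1 -0.66 (SE 0.705). All 8 shared the edgeR adjusted p of 0.99993. Single libraries turned the sign of the largest negative values: without WT 1 Ndufs1 was at 0.135, and without WT 2 Ndufs7 was at 0.042 (-0.53 without WT 1). Ndufa4, the most abundant of the 45 per kilobase, was at 825, 1115 and 1077 CPM against 1000, 1144 and 1356, a log2 fold change of 0.21.

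Across roles, the median log2 fold change by library name was 0.17 for the 10 distal membrane arm subunits (9 above 0), 0.14 for the 8 proximal ones (7 above 0) and 0.073 for the 9 accessory matrix arm subunits (9 above 0). For the 8 assembly factors it was 0.055 (7 above 0) and for the 7 core subunits 0.011 (4 above 0). These counts depended on single libraries. Without WT 1, 23 of the 45 genes had a fold change above 0 and the median was 0.008. Without WT 2, 40 of 45 were above 0 and the median was 0.245. Within the numbered library series alone (WT 2, WT 3, KO 2 and KO 3) the median was 0.037, with 28 of 45 above 0.

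**Figure D2:**
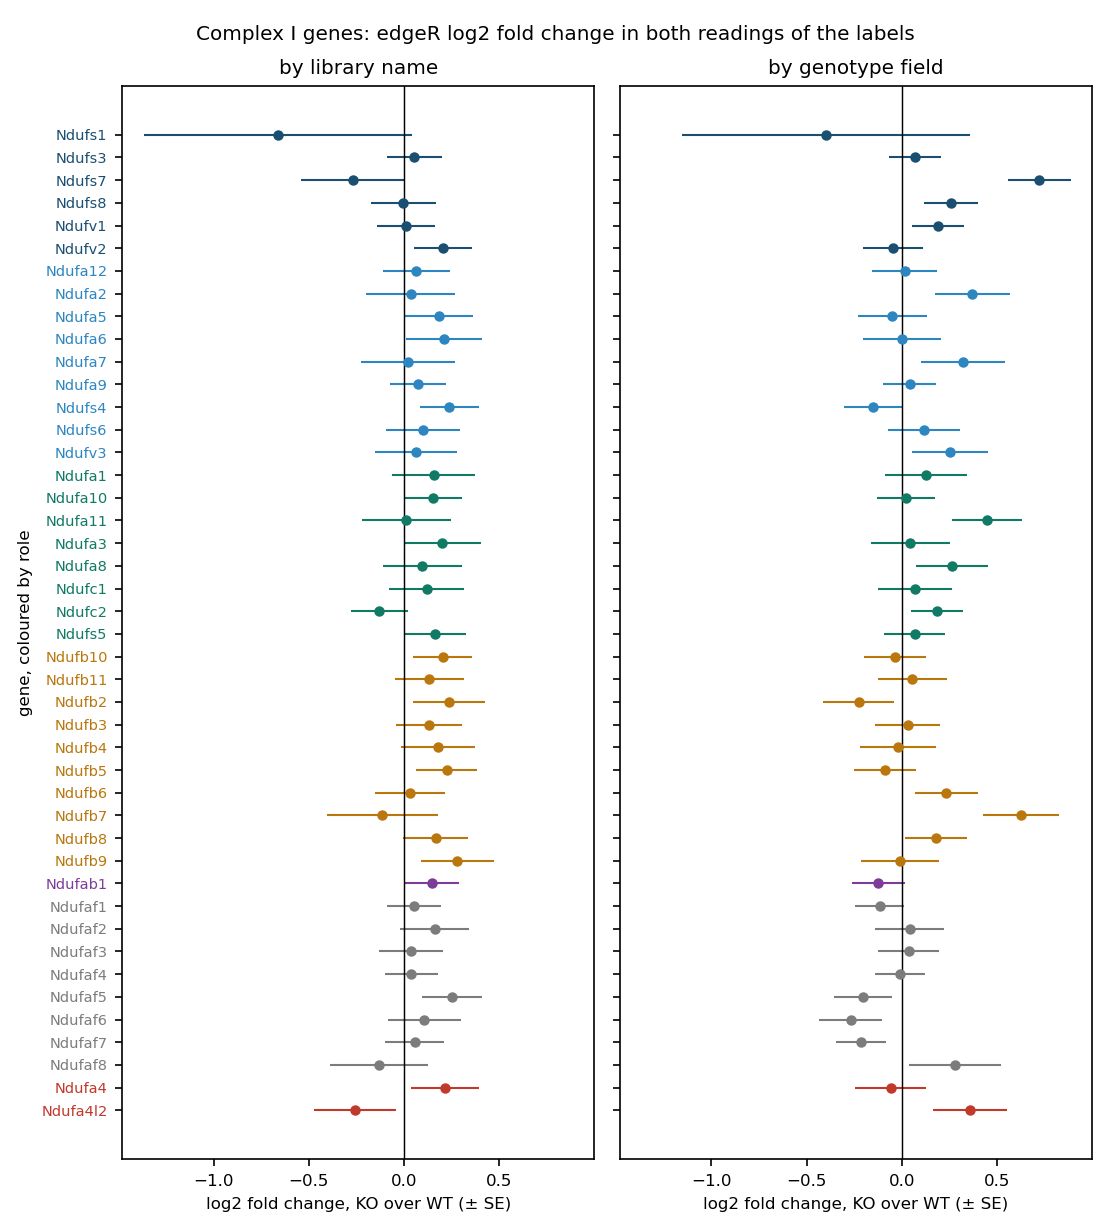
edgeR log2 fold change of KO over WT (± SE) for 44 of the 45 genes, coloured by role, with libraries grouped by name (left) and by genotype field (right). By name the values lie between -0.66 and 0.28, and by genotype field Ndufs7 (0.72), Ndufb7 (0.63) and Ndufa11 (0.45) lie farthest to the right.

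By genotype field, again 0 of 45 genes passed edgeR's test at an adjusted p under 0.05, with 2 of all 14708 genes (0.0136%) past it. At an unadjusted p under 0.05 there were 3 of 45 (Ndufs7, Ndufb7 and Ndufa11), against 5.69% of all genes. The log2 fold change was above 0 for 29 genes (64.4%, against 48.1% of all genes), with a median of 0.042 against -0.012. Protein-coding genes with transcripts under 1000 bases had 64.4% too, with a median of 0.093. Groups did not overlap for 7 genes that were higher in the libraries with a KO field (15.6%, against 7.48% of all genes), namely Ndufs7, Ndufb7, Ndufa11, Ndufa4l2, Ndufc2, Ndufs8 and Ndufv1. They did not overlap for 2 that were lower (4.44%, against 4.49%), the assembly factors Ndufaf6 and Ndufaf7. Of the 12 cardiomyocyte markers, 9 were above 0 in this reading (median 0.145). Groups did not overlap for 4 of the 12 that were higher (33.3%) and for 0 that were lower.

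Ndufs7 (Ensembl ENSMUSG00000020153, chr10:80249121-80256794, plus strand, GRCm38) had the smallest p of the 45. It was at 202, 274 and 202 CPM in the libraries with a KO field (KO 1, WT 2, WT 3) and at 119, 147 and 144 in those with a WT field (WT 1, KO 2, KO 3). All 3 values of the KO field were above all 3 of the WT field. Means were 226 ± 41.4 and 137 ± 15.5 CPM (SD, n = 3 libraries each), a log2 fold change of 0.72 (SE 0.165), and edgeR's adjusted p was 0.595. The title's replicate numbers were taken to pair the libraries, a pairing inferred from these same data. With the replicate number as a block edgeR gave a log2 fold change of 0.71 and an adjusted p of 0.0307. That fit called 0.347% of all genes and no other complex I gene. The ratios within pairs 1 to 3 were 1.7, 1.86 and 1.40. With the library series in place of the replicate number as the factor, edgeR's adjusted p was 0.171. With no filter on low counts edgeR's adjusted p was 0.0353 (0.106% of all genes called), and DESeq2 gave 0.0531 (0.109% called). Correcting each library for transcript GC content and length, a step chosen after the data were seen, gave a log2 fold change of 0.42 (SE 0.10, edgeR adjusted p = 0.999), with 0.0077% of all genes called. With the block added to the correction edgeR's adjusted p was 0.322, with 0.123% called.

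Ndufb7, a distal membrane arm subunit on the intermembrane space side, showed the next smallest p. It was at 211, 280 and 199 CPM in the KO field and 112, 151 and 184 in the WT field, a log2 fold change of 0.63 (SE 0.20, edgeR adjusted p = 0.786). With the block its edgeR adjusted p was 0.118. The pair ratios were 1.89, 1.86 and 1.08. The GC and length correction lowered its log2 fold change to 0.31 (SE 0.11). Ndufa11, a proximal membrane arm subunit at the contact with complex III, was at 224, 262 and 219 against 127, 182 and 208 CPM, a log2 fold change of 0.45 (SE 0.18). With the GC and length correction it was 0.17 (SE 0.11), and without WT 1 it was 0.26 (SE 0.14). Ndufaf7, an arginine methyltransferase of complex I assembly, was at 34.4, 31.5 and 35.3 CPM in the KO field and 40.4, 36.6 and 40.5 in the WT field. Ndufaf6 was at 15.1, 13.0 and 15.7 against 17.8, 18.6 and 16.5 CPM. Their log2 fold changes were -0.21 (SE 0.13) and -0.27 (SE 0.17), both with an edgeR adjusted p of 0.909. Ndufaf5 gave -0.20 (SE 0.15) and Ndufb2 -0.23 (SE 0.18). Ndufa2, at 198.5, 254 and 185.6 against 119.6, 181.1 and 192.5 CPM, gave 0.37 (SE 0.20), with overlapping groups. Ndufa4l2, at 13.7, 17.5 and 13.1 against 12.4, 12.04 and 10.03 CPM, gave 0.36 (SE 0.19).

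GC content moved with these differences. Across the 45 genes, Spearman's rho between the log2 fold change by genotype field and transcript GC content was 0.674, and across all 12985 tested protein-coding genes it was 0.522. With transcript length it was -0.515 and -0.173. By library name rho with GC content was -0.412 for the 45 genes and -0.029 for all. Genes within a library share its preparation and are not independent replicates, so no p is given. After the correction for GC content and length, 22 of 45 genes were above 0 by genotype field with a median of -0.010, and 31 of 45 by library name with a median of 0.045. The background was 45.5% and 51.6% of the genes. The part of GC content and length in the differences between the groups was not tested beyond this correction.

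The larger pattern was a shift of most complex I genes in a single library. WT 1 was the lowest of the 6 libraries for 37 of the 45 genes (82.2%), against 25.1% of all tested genes. Expressed as the deviation of log2(CPM + 0.5) from a gene's mean over the libraries, the median of the 45 genes was -0.36 in WT 1. It was 0.13 in WT 2, 0.012 in WT 3, -0.050 in KO 1, 0.099 in KO 2 and 0.11 in KO 3. The summed level of the 35 subunits was 8264 CPM in WT 1 and between 10380 and 11190 CPM in the other 5 libraries. In bulk tissue, fewer cells of a type and less RNA per cell cannot be told apart.

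By role, WT 1 was lowest for all 10 distal membrane arm subunits, 8 of 9 accessory matrix arm subunits, 6 of 8 proximal membrane arm subunits, 6 of 7 core subunits and 5 of 8 assembly factors. The median deviation in WT 1 was -0.42, -0.48, -0.51, -0.18 and -0.15 in these sets. Ndufb7 (112 CPM, against 151 or more in the other libraries), Ndufa7 (99.1 against 156 or more) and Ndufa1 (179 against 256 or more) show the gap between WT 1 and the rest. The assembly factors Ndufaf1, Ndufaf6 and Ndufaf7 did not follow it, with 49.3, 17.8 and 40.4 CPM in WT 1 and their lowest values in WT 2.

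**Figure D3:**
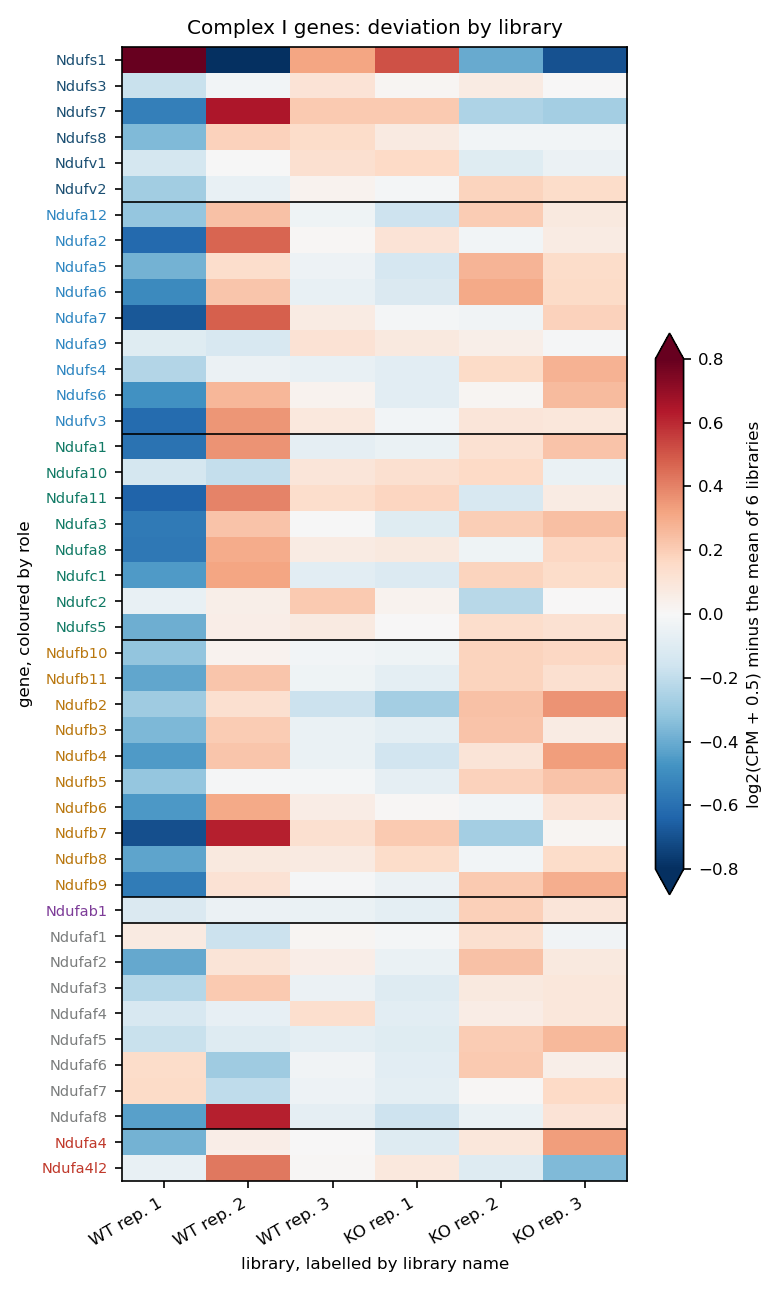
Deviation of log2(CPM + 0.5) from the gene's mean over the 6 libraries, as a colour for 44 complex I genes (lines, coloured by role) in each library (columns); the scale stops at ±0.8. The column of WT 1 is blue (below the mean) for all genes except Ndufs1, Ndufaf1, Ndufaf6 and Ndufaf7, and its median is -0.36, while the other 5 libraries have medians from -0.050 to 0.13.

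The shift was not particular to complex I. In WT 1 the 42 tested nuclear subunits of complexes II to V had a median deviation of -0.41 (WT 1 lowest for 37 of the 42), cytosolic ribosomal proteins one of -0.48 and mitochondrial ribosomal proteins one of -0.24. All 708 tested protein-coding genes with a principal transcript under 1000 bases had a median of -0.36, and the 12277 longer ones one of 0.029. Complex I transcripts are short: their median length was 971 bases against 3060 for all, and 53.3% were under 1000 bases against 5.45%. Among the 45, the 24 genes under 1000 bases had a median deviation of -0.455 in WT 1 and 0.22 in WT 2, and the 21 longer ones -0.18 and -0.050. WT 1 was the lowest library for 22 of the 24 and for 15 of the 21, against 65.7% of all short and 22.4% of all longer genes.

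Across the 45 genes, Spearman's rho of the deviation with transcript length was 0.715 in WT 1 and -0.612 in WT 2, and between -0.245 and 0.107 in the other 4 libraries. With GC content it was -0.416 in WT 1, 0.532 in WT 2 and -0.442 in KO 2. Over all 12985 protein-coding genes, rho with length was 0.394 in WT 1 and -0.281 in WT 2. WT 1 and WT 2 are thus opposite ends of the same relation, while both carry the WT library name. White adipocyte markers also varied: 8 of the 9 listed were tested, their summed level was 517, 801 and 606 CPM in WT 1 to WT 3 and 498, 919 and 721 in KO 1 to KO 3, Adipoq was at 2.88 to 20.5 CPM and Lipe was at 0 in all 6. KO 1 was as low in them as WT 1, while its complex I median was -0.050. Macrophage markers were lowest in WT 1 for 7 of 8 genes, with a median deviation of -0.455 in WT 1 and 0.29 in WT 2 and none of the 8 at 0. Their summed level was 794.5, 1255 and 1157 CPM in WT 1 to WT 3 and 977, 1208 and 1104 in KO 1 to KO 3. Of 7 brown adipocyte markers 5 were tested, with a median deviation of -0.43 in WT 1; they summed to 785, 1259 and 1077 against 1045, 1099 and 1310 CPM. That list includes Cox8b, Cox7a1 and Ppargc1a, which heart muscle also expresses, and Ucp1 was at 0 to 57.4 CPM. Cpt1b was at 0 in all 6 libraries. The 0 of Cpt1b or Lipe is not read as absence of the RNA, since 98.1% of protein-coding genes without a free body were at 0. Median deviations in WT 1 were -0.137 for cardiomyocyte markers (WT 1 lowest for 4 of 12), -0.065 for fibroblast and -0.126 for endothelial markers. They were -0.175 for smooth muscle and pericyte, -0.069 for skeletal muscle, 0.004 for epicardial and mesothelial and 0.04 for Schwann cell markers. The part of length, GC content and RNA of these cell types in the shift of WT 1 was not tested.

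**Figure D4:**
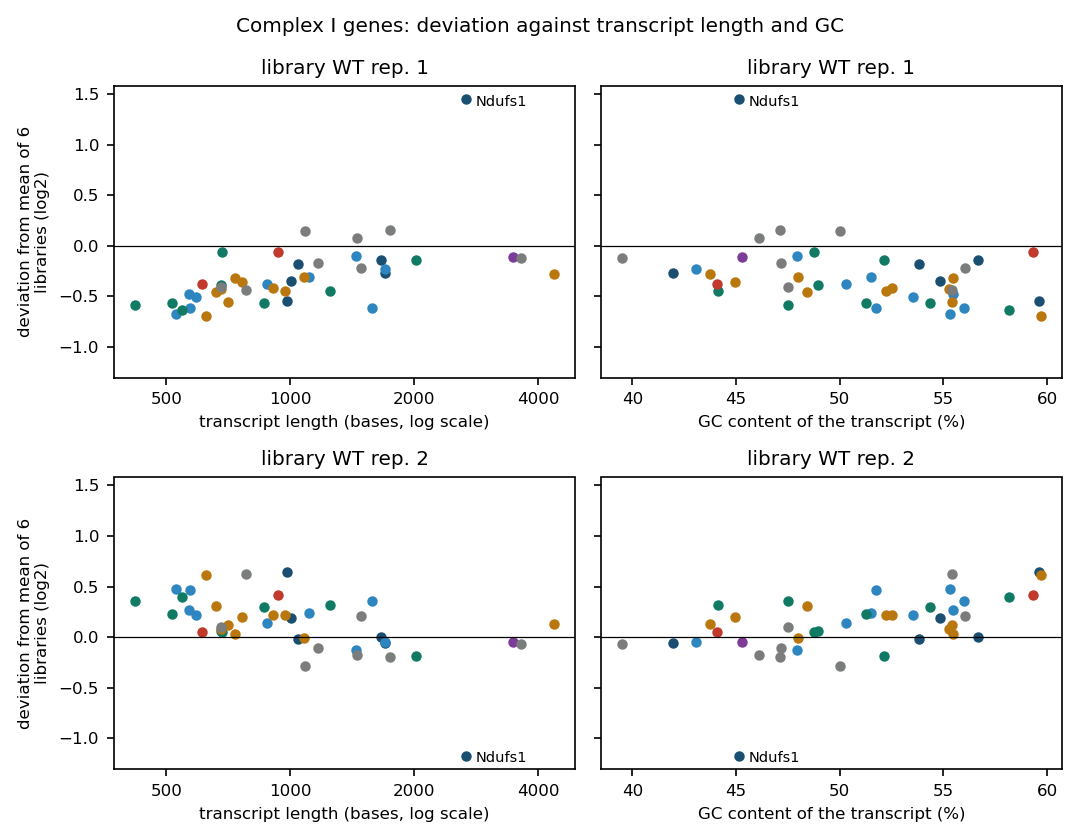
Deviation of 44 complex I genes from their means over 6 libraries (log2) against principal transcript length (log scale, left) and GC content (right), in WT 1 (top) and WT 2 (bottom), coloured by role. Short transcripts lie low in WT 1 (rho 0.715 over all 45 genes) and high in WT 2 (rho -0.612), and Ndufs1 lies apart in both.

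Ndufs1 (ENSMUSG00000025968, chr1:63143596-63176833, minus strand, GRCm38) encodes the largest core subunit, an iron-sulphur protein of the matrix arm. It was at 244, 39.2 and 111 CPM in WT 1 to WT 3 and 127, 67.4 and 54.9 in KO 1 to KO 3. Its highest and lowest levels, 6.23-fold apart, were both in libraries named WT. Counting error was small beside this, with 95% Poisson intervals of 237 to 252 CPM in WT 1 and 35.7 to 43.0 in WT 2. The SD of its deviations was 0.947, against a median of 0.203 over 8600 protein-coding genes at 10 CPM or more, of which 0.221% had a larger one. It was the only one of the 45 genes with its highest level in WT 1. No other core subunit followed it: the remaining 6 were all lowest in WT 1.

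The deposited counts may cover only part of Ndufs1. How reads shared by overlapping genes were treated is not stated, but nearly all protein-coding genes without a free body were at 0, as given above for Ndufa13. Exons 11 to 19 of its 19 exons lie under Ino80dos, a long non-coding RNA gene on the plus strand, and the libraries carry no strand. Of the 2661 bases of the principal transcript, 1229 lie outside other genes, all in exons 1 to 10 at the 5′ end. A like set was defined among tested protein-coding genes: 80% or more of the transcript 5′ of the midpoint outside other genes, and 10% or less of that 3′ of it. The 227 such genes besides Ndufs1 had median deviations of 0.23, -0.22 and 0.056 in WT 1 to WT 3 and 0.13, -0.098 and -0.044 in KO 1 to KO 3. This is the order of Ndufs1 over the libraries except that KO 2 and KO 3 are exchanged. The size was not alike: Ndufs1 itself deviated by 1.448 in WT 1 and -1.175 in WT 2, much more than the medians of the set. The 44 genes of the mirror-image set, free 3′ of the midpoint, had medians of -0.22 in WT 1 and 0.25 in WT 2, the opposite order of these libraries. Ndufb8, one of the 227 and with a short transcript, was lowest in WT 1 at 190 CPM against 252 or more elsewhere. If reads under Ino80dos were not counted, the level of Ndufs1 given here is that of its 5′ part. Introns of that part may be included, since whole gene bodies seem to have been counted. How much of the spread of Ndufs1 belongs to the whole transcript was not tested.

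**Figure D5:**
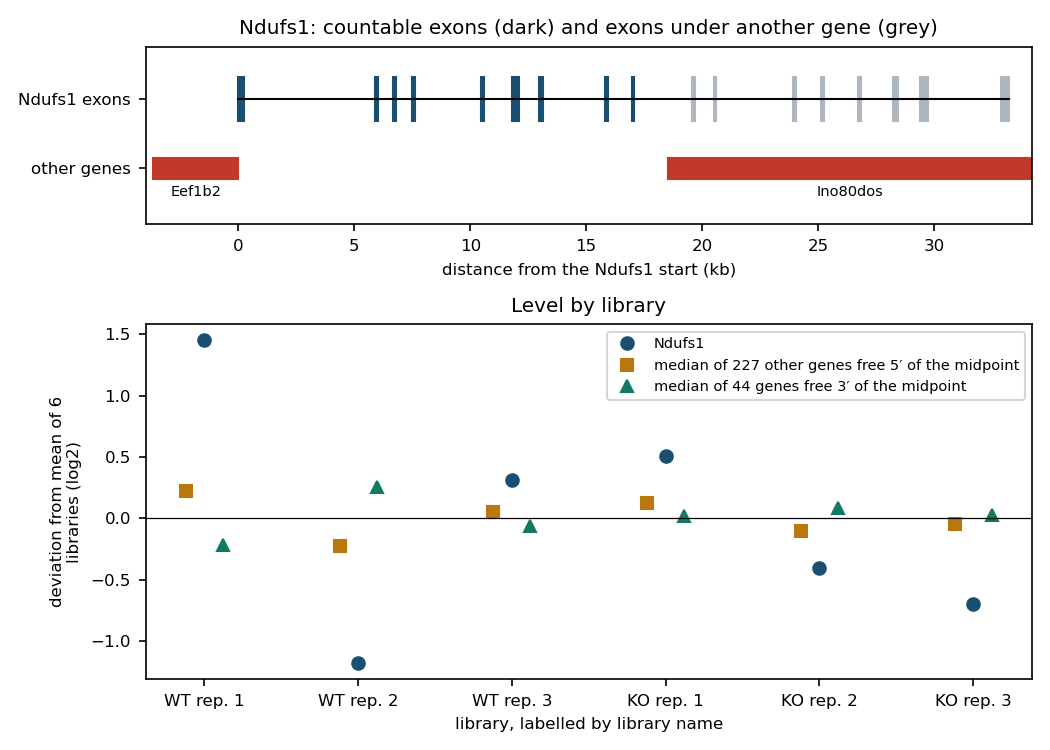
Exons of Ndufs1 by distance from its start in kilobases, with the overlapping genes below (top), and the deviation of Ndufs1 from its mean over 6 libraries (log2) beside the medians of the sets free of other genes 5′ or 3′ of the midpoint (bottom). Grey exons 11 to 19 lie under Ino80dos, and Ndufs1 and the 5′ genes are both highest in WT 1 and lowest in WT 2.

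Assembly factors without the Nduf name were also mostly above 0 by library name. Of 14 listed, 12 were tested, and Ecsit and Foxred1 were listed at 0 in all libraries, which is not read as absence either. By library name 12 of 12 had a log2 fold change above 0 (median 0.14) and 0 passed the adjusted test, and by genotype field 4 of 12 were above 0. Tmem186, which acts with Ndufaf1 in the assembly of the membrane arm, was at 19.1, 18.01 and 21.9 CPM in WT 1 to WT 3 and 25.2, 23.7 and 21.6 in KO 1 to KO 3. Its log2 fold change by library name was 0.25 (SE 0.17), with KO 3 inside the range of the WT libraries. Lyrm2 gave 0.22 (SE 0.155).

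The 7 subunits encoded in the mitochondrial genome form the core of the membrane arm. Their summed level lay between 65020 and 78290 CPM, lowest in WT 2 and highest in WT 3, and so did not share the low value of WT 1. By library name 1 of 7 had a log2 fold change above 0 (median -0.052), and by genotype field 5 of 7 were above 0, with 0 called in either. mt-Nd2 was at 13870, 10130 and 15780 CPM in WT 1 to WT 3 and 10740, 10930 and 10390 in KO 1 to KO 3, a log2 fold change of -0.31 (SE 0.18). mt-Nd5, at 11820 CPM in WT 1 and 6208 in WT 2, varied most among the abundant ones, and it overlaps mt-Nd6 on the other strand.

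Of 19 regulators of respiratory chain genes, 0 passed the adjusted test in either reading. By library name 13 of the 19 had a log2 fold change below 0 (median -0.11), against 8014 of all 14708 tested genes (median -0.022). Ppargc1a, the coactivator PGC-1alpha, was at 95.4, 56.1 and 84.8 CPM in WT 1 to WT 3 and 53.3, 40.5 and 63.9 in KO 1 to KO 3. Its log2 fold change was -0.58 (SE 0.22, edgeR adjusted p = 0.99993), and WT 2 lay within the KO values. Esrra, the oestrogen-related receptor alpha, was at 86.4, 96.0 and 98.4 CPM in the KO field and 53.9, 48.7 and 71.8 in the WT field. Its log2 fold change of 0.69 (SE 0.16) had an edgeR adjusted p of 0.595. WT 1, the library with the lowest complex I levels, thus had the highest Ppargc1a of the 6. It was also the highest library for 7 of the 19 regulators and for 4024 of all 14708 tested genes.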

How the data were processed

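RNA was measured in 6 atrial libraries. RNeasy-purified total RNA (1 µg) of frozen atria went into TruSeq v2 libraries, per the labels' protocols; this kit does not mark strand. The authors deposited raw read counts per Ensembl gene. Per the submitters' processing notes, HISAT2 2.1.0 and featureCounts 1.5.0-p3 were used with build GRCm38; neither the annotation nor the counted feature or strand setting is given in the sources used here. Gene structure was taken from GENCODE M21.

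Counts were filtered with filterByExpr, scaled by TMM and tested with edgeR 4.0.16 (quasi-likelihood F test, two-sided, Benjamini-Hochberg adjustment over 14708 genes, threshold 0.05), once by library name and once by genotype field, in R 4.3.3. DESeq2 1.42.0 was an alternative. The fit was checked on simulated data. SE is the log2 fold change divided by the root of F. Poisson intervals of counts cover counting error only, since reads carry no molecular identifiers. Every pair of libraries differed by more than counting noise (chi-square over genes at least 20.4 times its degrees of freedom).

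Same-numbered libraries (biological replicate number in the title) deviated together, with correlations over genes of 0.16, 0.172 and 0.125 by library name and 0.306, 0.258 and 0.118 by genotype field. Pairs with different numbers reached at most -0.011 by library name and 0.151 by genotype field (KO 3 with WT 2), the latter above the third matched pair. Each matched value was over 0.1, so the numbers were taken to pair the samples. Deviations from a group mean sum to 0 within the group, so some pairs correlate positively whatever the true pairing. These values therefore cannot establish the pairing, which was inferred from the same data. The labels call the samples biological replicates without naming litters or days, and p-values measure the spread between these 6 libraries.

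The members and the lists were chosen with earlier results of these data known. The values of 1 gene are not reported here, though it stays in the counts and medians of the 45. Genes named are core subunits, the 4 smallest p in each direction of each comparison, the 4 highest and 4 lowest per kilobase, Ndufa4 and Ndufa4l2, those at the count threshold, and at most 2 per other list; others named (Ndufa1, Ndufa7, Ndufab1, Ndufaf1, Ndufaf2, mt-Nd5, and Ndufb4, Ndufs5, Ndufs6, Ndufa3, Ndufa8 and Ndufaf4 for promoter motifs or levels) were picked after their values or sequences were seen.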

Additional observations from a re-analysis of the deposited data

How the results depend on the processing

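Each comparison had 19 alternatives, 18 refits and a restriction to the subunits. Of the refits, 3 (protein-coding genes only, correction for GC content and length, and this correction with the replicate block) were chosen after seeing the data. By library name, 0 of 45 genes were called under every one of them, leaving out each library in turn included (0 to 0). By genotype field, 1 gene, Ndufs7, was called with the replicate block and 1, again Ndufs7, with no low-count filter, and 0 under the other 17, with 0 to 0 when a library was left out. The replicate block changed no other call. The median log2 fold change of the 45 genes by library name (0.10) ran from 0.008 without WT 1 to 0.245 without WT 2, and the others lay between these. By genotype field (0.042) it ran from -0.093 without WT 1 to 0.125 without KO 2. It was below 0 also without WT 2 (-0.032), in the numbered series (-0.037) and with the GC and length correction (-0.010, and -0.006 with the block). Of 414 alternative values for 23 named genes per comparison, 44 by library name and 35 by genotype field changed sign, none of them called. With 3 libraries per group, 4 contested labels and genes that may have been counted only outside other genes, small differences in complex I transcripts were not resolved.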
